A study of Mus musculus with 4 samples.

Results

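Serum response factor (*Srf*), its coactivators myocardin (*Myocd*), *Mkl1* and *Mkl2*, the myocyte enhancer factors *Mef2a*, *Mef2b*, *Mef2c* and *Mef2d*, and the zinc finger factor *Tshz3* are the genes described here. They were taken by symbol, as 9 of the 25819 rows of the expression table, and were chosen with earlier results of these data known. Expression was measured by RNA-Seq in the whole urogenital sinus (UGS), the embryonic tissue from which prostate and bladder neck form, of male mouse embryos at E16.5 and E18.5. At each stage there was 1 library of wild type littermates and 1 of Tbx18Gfp/Gfp mutants, in which a GFP knock-in makes both alleles of *Tbx18* null in every cell, and each library held RNA pooled from 3 embryos. The mice were on a mixed B6C3-F1 hybrid background. Each group is thus a single library without replicates. No group was tested against another, no p-value is given, and the intervals below cover counting error only. In RNA from a whole tissue, fewer cells of a type and less RNA per cell cannot be told apart.

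SRF is a MADS box protein that binds a DNA element known as the CArG box and activates contractile, cytoskeletal and growth response genes, depending on the partner bound to it. Myocardin is such a partner in smooth and cardiac muscle cells and is a main activator of the smooth muscle contractile genes, whereas the myocardin-related factors MRTF-A (*Mkl1*) and MRTF-B (*Mkl2*) are expressed broadly and are held in the cytoplasm by unpolymerized actin. MEF2 proteins are MADS box factors that bind a related A/T-rich site and are best known in skeletal and heart muscle. TSHZ3 acts in the mesenchyme of the developing ureter, upstream of *Myocd*, where TBX18 is also needed for smooth muscle to form.

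*Srf* is itself known as a target of SRF, and its promoter shows the element that these proteins recognize. RefSeq promoters on GRCm38.p6, from 250 bases before to 50 bases after the transcription start, were available for 8 of the 9 genes as 13 windows. These were searched on both strands for the CArG box, the MEF2 site and AGGTGTGA, a core T-box element. The windows below show the matches of the members in capitals, and 2 target genes, *Myl9* and *Vcl*, are added because a CArG box lies in their promoters too. Each is written 5′ to 3′ along the strand of its gene.

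Srf, chr17:46556185-46556274, minus strand, CArG boxes in capitals: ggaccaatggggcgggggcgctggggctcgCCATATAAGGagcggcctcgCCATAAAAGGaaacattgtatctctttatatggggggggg
Mef2a, chr7:67372839-67372890, minus strand, MEF2 site in capitals: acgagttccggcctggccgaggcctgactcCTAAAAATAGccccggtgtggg
Mkl2, chr16:13358226-13358295, plus strand, MEF2 site in capitals: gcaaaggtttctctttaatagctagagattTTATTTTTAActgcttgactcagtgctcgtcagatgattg
Myl9, chr2:156775273-156775342, plus strand, CArG box in capitals: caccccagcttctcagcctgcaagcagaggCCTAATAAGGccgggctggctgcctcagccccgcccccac
Vcl, chr14:20929148-20929210, plus strand, CArG box in capitals: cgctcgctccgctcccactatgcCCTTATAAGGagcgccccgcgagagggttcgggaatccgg

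The *Srf* promoter held 2 CArG boxes, the first bases of which lie 82 and 62 bases before the start, and no other member had one in these windows. For comparison, 1.63% of all 32851 mouse promoters of this length held a CArG box. A MEF2 site was present in the promoter of *Mef2a*, 2 bases before the start, and in 1 of the 3 promoters of *Mkl2*, 165 bases before the start, against 3.19% of all promoters. AGGTGTGA was in none of the 13 windows and in 1.28% of all promoters. Among 19 smooth muscle targets of myocardin and SRF, 16 had a promoter entry, with a CArG box in that of *Myl9*, the regulatory light chain of smooth muscle myosin, 161 bases before the start. Of 10 cytoskeletal targets with an entry, 2 held a CArG box, *Vcl*, the focal adhesion protein vinculin, 227 bases and *Fhl1*, a LIM protein of muscle, 102 bases before the start. A match is only a description of the letters in the window. Only exact matches were counted, for the CArG box CC, then only A or T, then GG. Sites with a mismatch or outside the window would thus be missed, and a promoter without a match may still have one.

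The values are FPKM, read numbers per length of transcript and per depth of the library, so that levels can be compared between genes. Judged from genes covered by a single read, wild type UGS gave about 62700000 mapped reads at E16.5 and 28500000 at E18.5, and mutant UGS gave 54600000 and 51400000. The E18.5 wild type library stood apart from the other libraries. Over all rows past 1 FPKM in both libraries, its log2 ratios had a median of 0.29 in the mutant over wild type and of -0.33 in wild type E18.5 over E16.5, and they moved with the GC content of transcripts (Spearman correlations of 0.44 and -0.50 across genes), against medians of 0.01 and -0.06 and correlations of 0.02 and -0.23 in the comparisons without it. For this reason each ratio is given as deposited and, where it matters, relative to the median of all rows, or after subtracting the trend on transcript length and GC content. *Tbx18* had 3.47, 2.50, 3.16 and 2.93 FPKM in E16.5 wild type, E16.5 mutant, E18.5 wild type and E18.5 mutant UGS, the order in which values of the 4 libraries are given throughout, values that do not tell transcript of the knock-in locus from that of an intact one. Of markers of the tissue, *Hoxd13*, a homeobox gene of the posterior urogenital tract, had 36.8 to 67.4 FPKM, and *Trp63*, a factor of basal epithelium, had 7.93 to 15.5 FPKM.

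*Srf*, at chromosome 17 (46683788 to 46693111 in the deposited coordinates), had 17.7, 16.4, 13.7 and 18.6 FPKM. The E18.5 wild type library was the lowest, and the other 3 lay close together. *Myocd*, at chromosome 11 (64990063 to 65083491), had 7.94, 6.51, 11.0 and 10.6 FPKM. Both E18.5 libraries were thus above both E16.5 libraries, and the highest value was 1.69 times the lowest, the widest range of the 8 genes above 1 FPKM. *Mkl1*, at chromosome 15 (80842711 to 81021187), had 10.5, 10.1, 8.28 and 8.42 FPKM, lower in both E18.5 libraries. *Mkl2*, at chromosome 16 (13256574 to 13417622), had 9.12, 9.38, 11.0 and 8.28 FPKM, highest in E18.5 wild type and lowest in the E18.5 mutant.

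Among the MEF2 genes, *Mef2a* on chromosome 7 (74378710 to 74517744) had 17.98, 16.2, 21.8 and 17.0 FPKM, the mutant library being the lower at each stage. *Mef2c* on chromosome 13 (83643033 to 83806684) had 16.3, 11.9, 15.4 and 12.3 FPKM. Here the 2 wild type libraries lay above the 2 mutant libraries. *Mef2d* on chromosome 3 (87946317 to 87973089) had 11.1, 10.4, 10.8 and 9.49 FPKM, again with both mutant values below both wild type values, though over a range of only 1.17-fold. *Mef2b* on chromosome 8 (72676677 to 72691387) had 0.0569, 0.131, 0.0313 and 0.226 FPKM, about 4, 8, 1 and 13 reads. It was the only member below 1 FPKM in every library, and enters no comparison below unless it is named.

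*Tshz3*, at chromosome 7 (37483137 to 37558476), had 8.75, 8.47, 8.22 and 7.89 FPKM and was the most even of the genes, with a highest value 1.11 times the lowest. Its relative *Tshz1* had 13.5, 13.0, 13.4 and 11.3 FPKM, and *Tshz2*, the most abundant of the family in each library, had 32.1, 37.0, 44.7 and 32.1 FPKM.

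**Figure D1:**
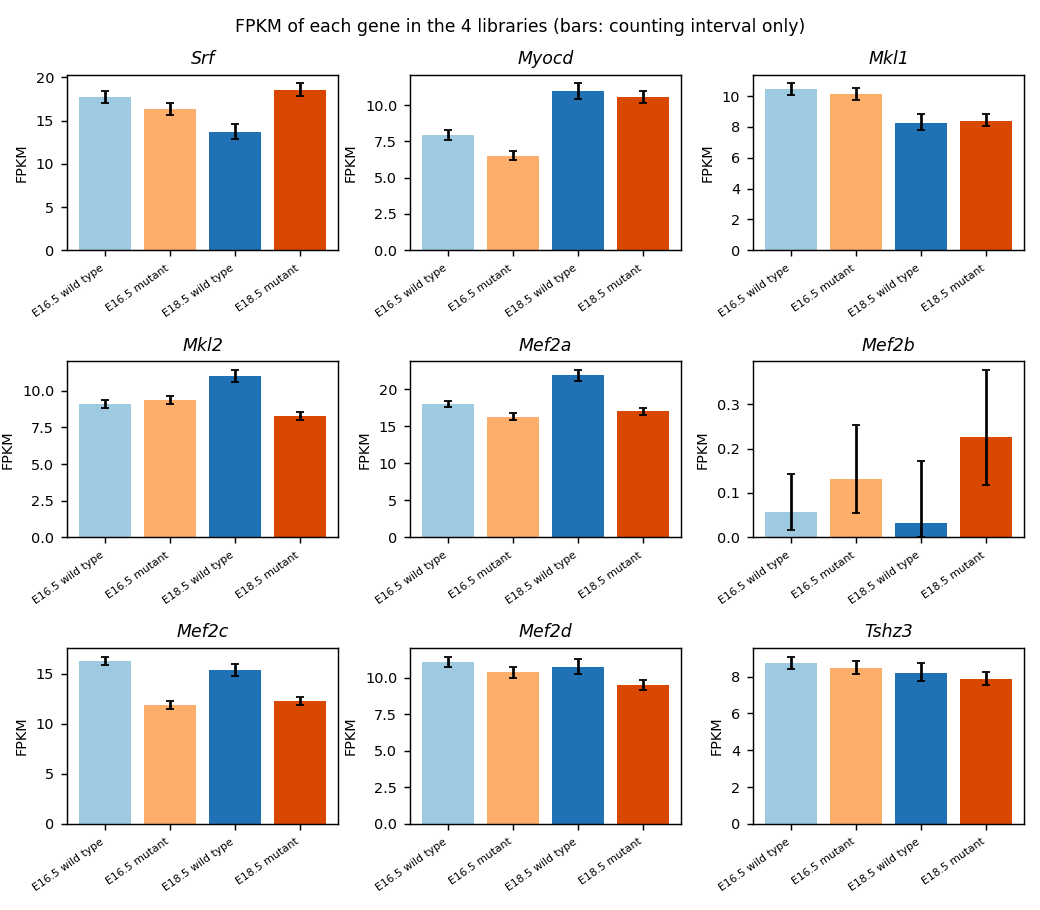
FPKM of the 9 genes in each of the 4 libraries, each gene on a linear axis of its own, with approximate 95% intervals for counting error. Bar heights are therefore not comparable between panels. By the axis values, *Mef2b* is far below the other genes, all of which are between 6.51 and 21.8 FPKM. *Myocd* is higher in both E18.5 libraries than in both E16.5 libraries.

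In order of level, *Mef2a* and *Srf* came first in E16.5 wild type UGS and did not differ beyond their counting intervals. *Mef2c* followed, then *Mef2d* and *Mkl1*, which overlapped, *Mkl2* and *Tshz3*, which also overlapped, then *Myocd* and *Mef2b*. *Myocd* was thus the 8th of the 9 genes in E16.5 wild type UGS, and it held the same place in the E16.5 mutant. In E18.5 wild type UGS it was the 5th, with an interval that overlapped those of *Mkl2* and *Mef2d* beside it, and in the E18.5 mutant it was the 4th. Levels of mRNA from a whole tissue do not give protein or activity, which for MRTFs and MEF2 is set largely after transcription.

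To ask whether loss of *Tbx18* changed these factors at E16.5, the mutant and wild type libraries were compared directly. *Mef2c* differed most: it was 1.37-fold lower in the mutant, a log2 ratio of -0.45 (counting interval -0.51 to -0.40), and 4.02% of all rows had a lower ratio. *Myocd* followed with -0.29 (-0.38 to -0.20). *Mef2a* had -0.15 and *Srf* -0.11, and *Mef2d* had -0.09. *Tshz3* and *Mkl1* both had -0.05, and *Mkl2*, at 0.04, was the only one of the 8 with a higher value in the mutant; once both libraries were scaled to equal sums it had -0.07. None of the 8 genes differed by 1.5-fold, as did 4.15% of all 14761 rows with at least 1 FPKM in either library (4.2% relative to the median). For 5 of the 8, the counting interval excluded 0. *Mef2b* had a log2 ratio of 1.20, with an interval of -0.70 to 3.38.

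At E18.5, when the first prostate buds have formed, *Mkl2*, *Mef2a*, *Mef2c* and *Mef2d* were lower and *Srf* higher in the mutant by more than counting error. *Mkl2* had a log2 ratio of -0.41 (-0.49 to -0.34), *Mef2a* of -0.36 (-0.43 to -0.30), *Mef2c* of -0.32 (-0.39 to -0.25) and *Mef2d* of -0.18 (-0.27 to -0.09). *Srf* had 0.44 (0.33 to 0.55). *Myocd*, at -0.05, *Tshz3*, at -0.06, and *Mkl1*, at 0.02, had intervals that included 0. As deposited, 0 of the 8 genes differed by 1.5-fold, while 40.8% of all 14733 rows did. Relative to the median, 3 of the 8, *Mkl2* (-0.70), *Mef2a* (-0.65) and *Mef2c* (-0.61), were lower by at least 1.5-fold and none was higher by that much. The share of members past 1.5-fold in either direction was near that of all rows, 35.8%. By direction, 2361 of the 14733 rows were lower and 2909 higher by that much. On that scale *Myocd* was at -0.34, *Tshz3* at -0.35, *Mkl1* at -0.26 and *Srf* at 0.15, so that 7 of the 8 lay below the median row.

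The place of *Srf* and *Mkl1* at E18.5 depended on whether the trend was subtracted. Their transcripts had a GC content of 64.4% and 58.6%, against 40.8% for *Mef2c* and 42.0% for *Mef2a*. They were also shorter, with 2616 and 4392 bases, against 6277 for *Mef2c* and 5538 for *Mef2a*. The subtraction takes out both properties together, and the part of each was not tested. With the trend subtracted, the E18.5 log2 ratio of *Srf* turned from 0.44 to -0.59 and that of *Mkl1* from 0.02 to -0.62, while *Mef2c* had -0.19, *Mef2a* -0.29 and *Mkl2* -0.44. *Mef2a*, *Mef2c*, *Mef2d*, *Mkl2*, *Myocd* and *Tshz3* were lower in the E18.5 mutant under every scaling tried. At E16.5, with the trend subtracted, each member stayed within its counting interval.

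**Figure D2:**
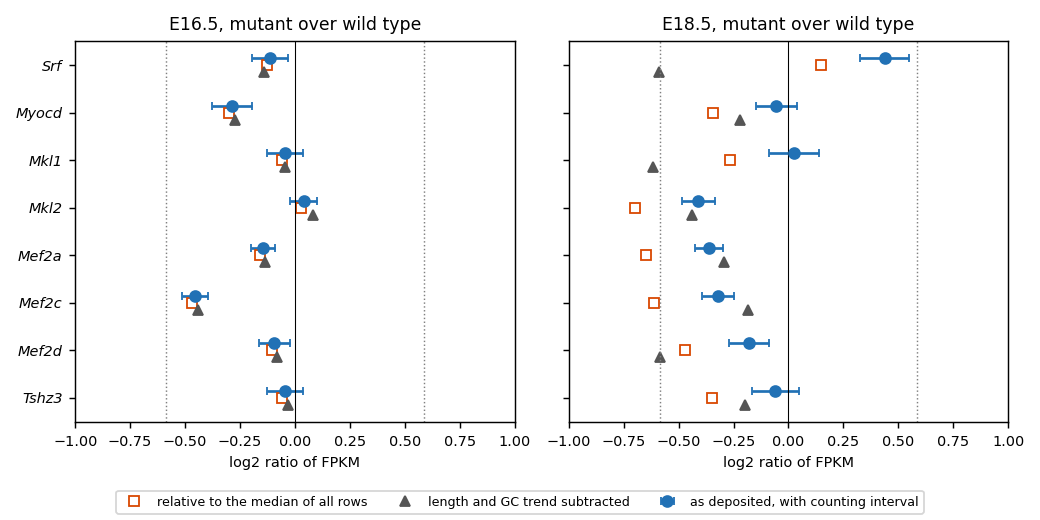
Log2 ratio of mutant over wild type FPKM at E16.5 (left) and E18.5 (right) for the 8 genes past 1 FPKM. Filled circles with bars give the ratio as deposited with its 95% counting interval, open squares the ratio relative to the median of all rows, triangles the ratio after subtracting the trend on length and GC content, and dotted lines mark 1.5-fold. The 3 scales lie together at E16.5 and apart at E18.5, most of all for *Srf*.

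Between the stages, *Myocd* was higher at E18.5 in both genotypes. In wild type UGS its log2 ratio of E18.5 over E16.5 was 0.47 (0.37 to 0.56), or 1.38-fold, and in the mutant it was 0.70 (0.61 to 0.79), or 1.62-fold. In the mutant it was the 1 member of the 8 past 1.5-fold, a limit that 4.68% of 14713 rows passed (4.83% relative to the median), and 97.7% of all rows had a lower ratio. The 2 comparisons of stages share no library. In wild type UGS no member passed 1.5-fold as deposited, against 42.7% of 14807 rows. Relative to the median *Myocd* (0.80), *Mkl2* (0.60) and *Mef2a* (0.61) were higher by that much, against 35.7% of all rows in either direction. By direction, 2358 of the 14807 rows were higher and 2925 lower. As deposited, *Mkl1* had -0.34 in wild type UGS and -0.27 in the mutant, and *Srf* had -0.37 and 0.18. In wild type UGS neither value held under other scalings: relative to the median *Srf* was at -0.04 and *Mkl1* at -0.01, and with the trend subtracted they were at 0.79 and 0.45, against 0.36 and -0.12 in the mutant. *Mef2c*, *Mef2d* and *Tshz3* had between -0.09 and -0.04 in wild type UGS (0.24 to 0.29 relative to the median), with -0.13 for *Mef2d*, 0.05 for *Mef2c* and -0.10 for *Tshz3* in the mutant.

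The E18.5 mutant was also set against E16.5 wild type UGS, a choice made after the data were seen, so as to leave out the library that stood apart. Genotype and stage both differ in that comparison. *Myocd* was then 1.33-fold higher (log2 ratio 0.41), *Mef2c* had a log2 ratio of -0.41, *Mkl1* of -0.31 and *Srf* of 0.07. No member passed 1.5-fold, as did 6.47% of 14766 rows.

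Ratios between genes of the same library do not depend on the scaling of the library as a whole, although they still carry any trend on GC content. *Myocd* made up 28.8%, 25.0%, 36.3% and 38.8% of the summed FPKM of *Myocd*, *Mkl1* and *Mkl2*, the 3 coactivators that can bind SRF. The share was higher in both E18.5 libraries. The sum itself was 27.5, 26.0, 30.3 and 27.3 FPKM. *Mkl1* took 38.0%, 39.0%, 27.4% and 30.9% and *Mkl2* 33.1%, 36.0%, 36.4% and 30.4%. For each unit of *Srf* there was 0.449, 0.398, 0.800 and 0.569 of *Myocd*, again higher in both E18.5 libraries and highest in wild type.

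Within the MEF2 family, *Mef2a* made up 39.6%, 42.0%, 45.5% and 43.6% of the summed FPKM, *Mef2c* 35.9%, 30.8%, 32.0% and 31.5%, and *Mef2d* 24.4%, 26.8%, 22.4% and 24.3%. The 4 genes summed to 45.4, 38.7, 48.0 and 39.0 FPKM, with both mutant sums below both wild type sums. For each unit of *Mef2a* there was 0.908 of *Mef2c* in E16.5 wild type UGS, and 0.734, 0.704 and 0.724 in the other libraries. The lower share of *Mef2c* was thus also present in E18.5 wild type UGS, the library in which *Mef2a* was highest. For each unit of *Mef2d*, in contrast, there was 1.48, 1.15, 1.43 and 1.30 of *Mef2c*, higher in both wild type libraries than in both mutant libraries.

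**Figure D3:**
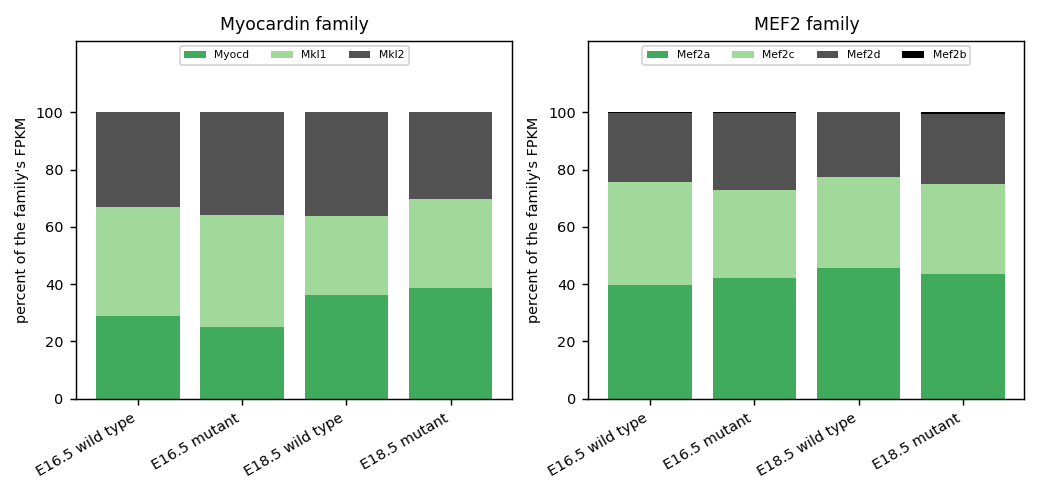
Share of the summed FPKM of each family held by its members in the 4 libraries, for *Myocd*, *Mkl1* and *Mkl2* (left) and for the MEF2 genes (right), in percent. *Myocd* holds 25.0% to 28.8% at E16.5 and 36.3% to 38.8% at E18.5, and *Mef2b* at most 0.579%.

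Of 19 listed smooth muscle targets of myocardin and SRF, 17 ranged more widely over the libraries than *Myocd*, and 2, the integrin *Itga8* (1.14-fold) and the myosin phosphatase subunit *Ppp1r12b* (1.32-fold), did not. *Actg2*, the enteric smooth muscle gamma-actin, had 199.6, 51.6, 237 and 1064 FPKM, lowest in the E16.5 mutant and highest in the E18.5 mutant. For each unit of *Myocd* there was 25.2, 7.93, 21.6 and 100.7 of *Actg2*. *Acta2*, smooth muscle alpha-actin, stood at 75.2, 58.4, 63.6 and 144 per unit of *Myocd*, and *Myh11*, the smooth muscle myosin heavy chain, at 10.9, 4.80, 13.5 and 25.0. *Tagln*, the actin-binding protein transgelin, stood at 13.5, 8.54, 8.51 and 38.0 and *Cnn1*, calponin, at 6.78, 3.24, 4.86 and 16.9. All 5 ratios were highest in the E18.5 mutant, the library in which *Myocd* was within 1.04-fold of its level in E18.5 wild type UGS.

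All 19 listed smooth muscle targets were lower in the E16.5 mutant, 9 of them by at least 1.5-fold, a limit that 2.72% of all rows passed in this direction. Their median log2 ratio was -0.49, against 0.01 over all rows tested. *Kcnmb1* was below 1 FPKM in the E16.5 mutant alone. It could thus only count as lower there, and only as higher from E16.5 to E18.5 in the mutant. In the E18.5 mutant, 17 of the 19 were higher, 13 by at least 1.5-fold, as were 33.2% of all rows, with a median of 0.83 against 0.31 over all rows. Relative to the median row, 15 were higher and 9 passed 1.5-fold. With the trend subtracted the median was 0.46 and 6 passed. From E16.5 to E18.5, 17 of the 19 were higher by at least 1.5-fold in the mutant, as were 3% of all rows, and 5 in wild type UGS, as were 6.8% of all rows. With the trend subtracted, 17 passed 1.5-fold in the mutant and 11 in wild type UGS. These targets are held by the smooth muscle lists that were already known to move in these libraries, so their direction is not independent evidence.

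**Figure D4:**
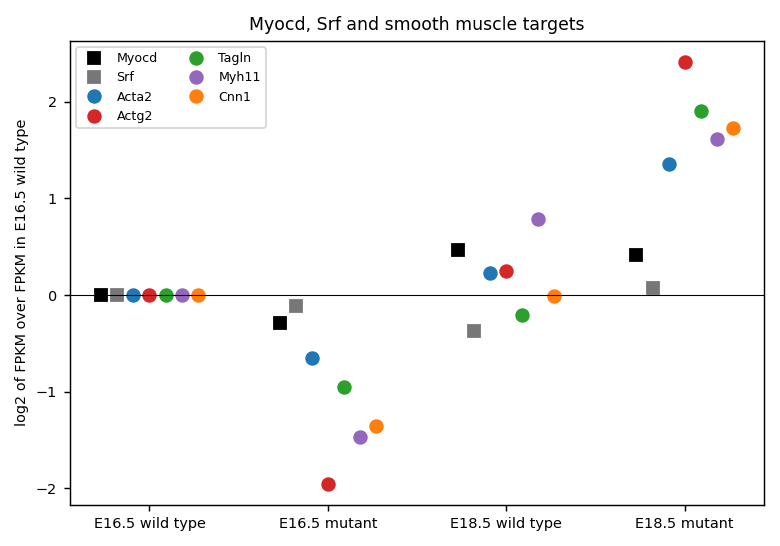
Log2 of the FPKM of *Myocd*, *Srf* (squares) and 5 smooth muscle targets (circles) over their own FPKM in E16.5 wild type UGS, by library. The targets range from -1.95 (*Actg2* in the E16.5 mutant) to 2.41 (*Actg2* in the E18.5 mutant), whereas *Myocd* and *Srf* stay between -0.37 and 0.47.

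The other targets of SRF were summarised by the partner that acts on them. Of 13 cytoskeletal targets of MRTF and SRF, 5 were higher and 8 lower in the E16.5 mutant and none passed 1.5-fold. *Fhl1* was the lowest at -0.53. At E18.5, 12 of the 13 were higher in the mutant, 5 by at least 1.5-fold, a share near the 33.2% of all rows, led by *Flna*, the actin crosslinker filamin A, at 1.41 and *Ctgf*, a matricellular growth factor, at 1.22. Their median was 0.53 as deposited and 0.05 with the trend subtracted, when 3 passed 1.5-fold. Of 9 immediate early genes, which SRF activates with the Ets factors of the TCF group, 5 passed 1 FPKM at each stage. *Egr1*, a zinc finger factor, had ratios of -0.11 at E16.5 and -0.04 at E18.5, the latter becoming -0.61 with the trend subtracted. *Fos*, a subunit of AP-1, had 1.54 at E18.5 (1.05 with the trend subtracted), from 2.13 FPKM in wild type to 6.20 FPKM in the mutant. The median of the 5 genes at E18.5 was 0.76 as deposited and -0.22 with the trend subtracted.

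The striated muscle genes that MEF2 is known to activate were lower in the E16.5 mutant in 13 of the 13 measured cases. Of these, 12 were lower by at least 1.5-fold, against 2.72% of all rows, and the median log2 ratio was -1.16. *Mb*, *Xirp1* and *Tcap* passed the filter through the wild type library alone, so they could only count as lower. *Ckm*, muscle creatine kinase, had 26.2, 8.86, 19.9 and 62.6 FPKM, a log2 ratio of -1.56 at E16.5 and of 1.65 at E18.5. *Eno3*, muscle enolase, had 1.46 at E18.5, whereas *Myoz2*, a Z-disc protein, had -0.91. Of 10 measured at that stage, 6 were higher and 4 lower, 3 past 1.5-fold each way, against 33.2% of all rows higher and 7.6% lower by that much. *Myoz1*, among the 3 higher, passed the filter through the mutant library alone, so as deposited it could only count as higher. Relative to the median row, 4 were higher and 6 lower, and the median was 0.14 as deposited and -0.37 with the trend subtracted. Skeletal muscle markers moved with this list. Among them, *Cacna1s* passed the filter at E16.5 through wild type alone. Of the 12 markers, 11 were measured at E16.5, and all 11 were lower in the mutant by at least 1.5-fold. Their summed level was 833, 349, 413 and 747 FPKM, and 602, 268, 303 and 292 FPKM without *Acta1*, skeletal alpha-actin, with *Pax7* below 1 FPKM throughout. At E18.5, 4 of 10 were higher and 6 lower, or 2 and 8 relative to the median row. *Ryr1* passed the filter at E18.5 through wild type alone, so it could only count as lower. Their part in the values of *Mef2c* and of the MEF2 targets was not tested. The cardiac markers summed to 3.98 to 5.17 FPKM, with *Nppa*, *Mybpc3* and *Nkx2-5* below 1 FPKM in every library.

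Cofactors of SRF and MEF2 were measured alongside. At E16.5, no gene passed 1.5-fold among the 15 measured SRF partners or the 18 MEF2 partners. *Fhl2*, a LIM cofactor that can hold SRF from its targets, was the lowest SRF partner at -0.49. At E18.5, 7 of 15 SRF partners were higher in the mutant by at least 1.5-fold and none lower by that much, against 33.2% and 7.6% of all rows, led by *Fhl2* at 1.46 and *Csrp2*, a cysteine-rich SRF partner, at 1.20. Relative to the median row, 3 SRF partners were higher and 2 lower by 1.5-fold, and with the trend subtracted 4 passed either way. Of the 18 MEF2 partners, 12 were higher and 6 lower, with 6 and 2 past 1.5-fold, shares near those of all rows, and 2 in all passed with the trend subtracted. *Mapk14*, the p38 kinase that phosphorylates MEF2, had 0.98, and *Hdac5*, which represses MEF2, had 0.88, whereas the acetyltransferases *Crebbp* and *Ep300* had -0.97 and -0.46. Relative to the median row, the medians of the 2 lists at E18.5 were 0.16 and 0.02.

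Genes of the ureter smooth muscle programme, in which *Tshz3* and *Tbx18* act, were split at E16.5, with 6 higher and 7 lower of 13. *Foxf1a* (17.0 FPKM in wild type and 9.29 in the mutant) and *Foxf2* (21.1 and 10.2), forkhead factors of Hedgehog-responsive mesenchyme, had log2 ratios of -0.87 and -1.06 and were the only ones past 1.5-fold. At E18.5, *Foxf1a* had 0.87, the Hedgehog effector *Gli1* had 1.01 and *Sox9* had -1.02, which with the trend subtracted became 0.29, 0.33 and -1.22. *Tshz3* had -0.06 as deposited and -0.20 with the trend subtracted. *Gata6*, a partner of SRF in smooth muscle, was higher at E18.5 than at E16.5 in both genotypes, as was *Myocd*, with 6.43, 7.80, 14.0 and 13.1 FPKM.

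**Figure D5:**
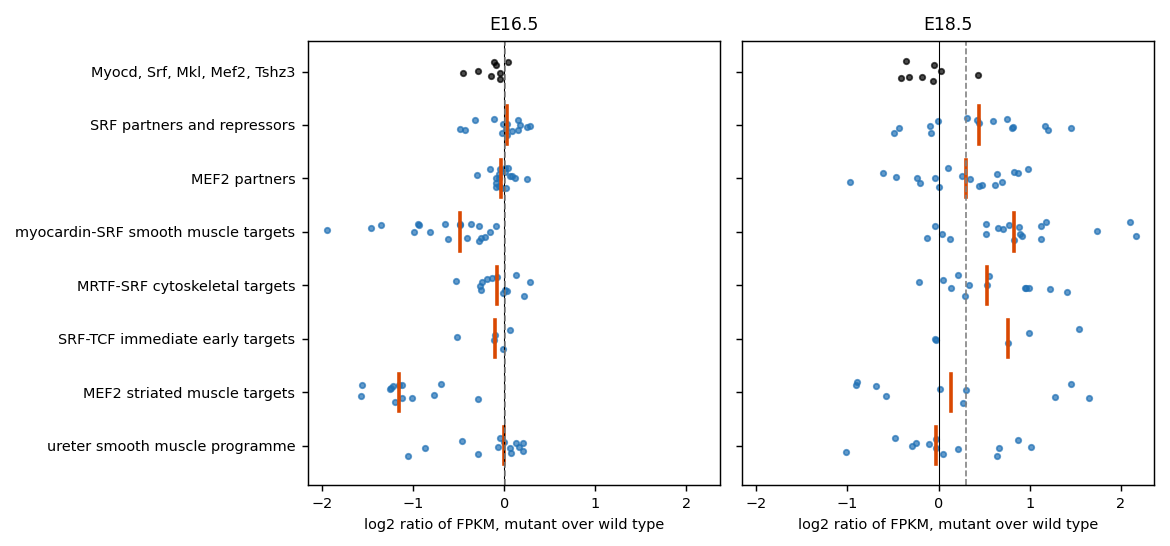
Log2 ratio of mutant over wild type FPKM for the genes of 7 lists past 1 FPKM, at E16.5 (left) and E18.5 (right). Each point is a gene, the orange bar is the list's median, black points are the 8 members and the dashed line is the median of all rows. The medians of the smooth muscle and striated muscle targets lie below those of the other target and partner lists at E16.5, and the 8 members stay within -0.45 and 0.44 at both stages.

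The other marker lists gave the makeup of the libraries. Endothelial markers summed to 106 to 119 FPKM, macrophage markers to 54.4 to 76.4, neuron and glia markers to 222 to 317, epithelial markers to 363 to 482 and stromal markers to 1954 to 2444. At E16.5, 7 of 7 endothelial, 8 of 8 macrophage and 5 of 6 stromal markers were higher in the mutant, as were 54.2% of all rows. In the same comparison, 7 of 8 neuron and glia markers and 5 of 7 epithelial markers were lower, the latter with a median log2 ratio of -0.43. Only 1 marker of these lists, of macrophages, was higher by 1.5-fold, as were 1.44% of all rows. At E18.5, 5 of 8 macrophage markers were higher by 1.5-fold, as were 33.2% of all rows, and 1, *Cd68*, was lower by that much (-0.81). The median of the macrophage markers was 0.86 as deposited and 0.26 with the trend subtracted, when 3 passed either way. The part of these cell types in the values of the 9 genes was not tested.

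Over the 4 libraries, the row most like *Myocd* in pattern was *Avpr1a*, the vasopressin V1a receptor of smooth muscle, at a root mean square distance of 0.03 on the centred log2 scale, with 3.82, 3.09, 5.04 and 4.81 FPKM. *Myadm* and *Rgs2* were also among the nearest 5. For *Tshz3* the nearest were *Arl5b*, *Smad2* and *Reps1*, for *Srf* *Tmem9b* and *Ostm1* among named genes, and for *Mef2c* *Prrg4*. With 4 points per gene, likeness of pattern is a description only.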

How the data were processed

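RNA of the whole UGS of 3 male embryos per genotype and stage was pooled into 1 library each. Stranded single-end reads were aligned by the authors with TopHat2 2.1.0, and they deposited FPKM from Cufflinks 2.2.1, 1 column per library, with no further scaling stated. The submitters' processing notes also name CASAVA 1.8.2 and Trimmomatic 0.30. The genome build is not given in the sources used here. Deposited positions, with starts counted from 1, differ from GRCm38, which was used only for promoters.

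Ratios were taken without a pseudocount for rows reaching 1 FPKM in 1 or both libraries of a pair, as the study did, and counted at 1.5-fold. Counts of lists are over rows past that filter. Depth was estimated from 15 to 27 olfactory receptor rows per library holding single reads, which agreed within 0.5%, assuming a fragment length of 200 bases. Counting intervals (95%) were exact intervals on the read numbers this gives, and cover counting error only. A lowess trend (span 0.3) on length and GC content, found by symbol for 23078 of 25819 rows, was fitted over rows reaching 1 FPKM in both libraries. The genes of interest and all lists were chosen with earlier results of these data known. Another list is not reported here. Named list genes are the 2 most raised and the 2 most lowered per list and comparison (with 5 FPKM or more in 1 library and 1 FPKM or more in the other), beside *Acta2*, *Actg2*, *Tagln*, *Myh11*, *Cnn1*, *Tbx18*, *Tshz1* and *Tshz2*. For *Myocd*, *Srf*, *Mef2c* and *Tshz3* the 5 rows of nearest pattern could be named (log2 of FPKM plus 0.1). Marker genes, *Myl9*, *Itga8*, *Ppp1r12b* and the genes named for passing the filter through 1 library were singled out after their values were seen. Alternatives were centring on the median, equal sums, equal upper quartiles, the trend, a 5 FPKM filter, no filter, pseudocounts and a 2-fold limit. The ratios as deposited, centred on the median and with the trend subtracted were tried on simulated data with known folds, a shift and a GC trend. The depth estimate, counting intervals, list counts, nearest patterns and promoter search were not. Computation used matplotlib 3.10.9, statsmodels 0.14.6, scipy 1.17.1, pandas 2.3.3 and numpy 2.4.6 under Python 3.11.15.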

Additional observations from a re-analysis of the deposited data

Results flagged for a closer look

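The following had mutant to wild type log2 ratios of opposite sign at the 2 stages. With 1 library per genotype and stage the differences were not tested, and the E18.5 wild type library enters each. The values are the log2 ratio at E18.5 minus that at E16.5. *Srf* differed by 0.55, which was -0.45 once the length and GC trend was removed. *Mkl1* differed by 0.07, with both ratios near 0, and *Mkl2* by -0.45. The list medians differed by 1.32 for the smooth muscle targets, 0.61 for the cytoskeletal targets, 0.87 for the immediate early genes, 1.3 for the striated muscle targets and 0.34 for the MEF2 partners. Those of the cardiac, neuron and glia, and epithelial markers differed by -0.48, 0.29 and 0.45. Each median covers the genes past the 1 FPKM filter at that stage. These were 13 striated muscle targets at E16.5 and 10 at E18.5, and 2 and 3 cardiac markers, so for these lists the genes compared are not the same. *Myl7*, a cardiac marker, entered at E18.5 through the mutant library alone. With the trend removed, the medians of the immediate early genes (-0.11 at the earlier and -0.22 at the later stage), striated muscle targets (-1.21 and -0.37), MEF2 partners (-0.01 and -0.09), and neuron and glia (-0.29 and -0.35), epithelial (-0.42 and -0.53) and cardiac (-0.01 and -1.22) markers had the same sign at both stages. Among single targets, *Acta2* differed by 1.78, *Actg2* by 4.12, *Tagln* by 3.05, *Myh11* by 2.3 and *Cnn1* by 3.09.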

How the results depend on the processing

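The number of the 9 genes past 1.5-fold depended on the scaling wherever the E18.5 wild type library was used. For the E18.5 mutant over wild type it was 0 as deposited, 3 after centring on the median, 4 with equal sums, 3 with equal upper quartiles and 2 with the trend subtracted. Of all rows, 40.8% passed as deposited and 35.8% after centring. For wild type E18.5 over E16.5 the number of the 9 genes was 0 as deposited, and 3, 1, 3 and 2 under the same settings. Of all rows in that comparison, 42.7% passed as deposited and 35.7% after centring. No share of all rows is given for equal sums, equal upper quartiles or the trend, so counts of members or list genes under these settings have no background. With no filter, *Mef2b* was added in each comparison, giving 1 in the mutant over wild type at each stage, 1 in wild type over time and 2 in the mutant over time. In the mutant over time, the count of 1 became 0 at a 2-fold limit. The lists other than markers, with the list not reported among them, held 122 genes before the 1 FPKM filter. Of those past the filter, 54 passed 1.5-fold in the E18.5 mutant over wild type as deposited, when 40.8% of all rows past it did. With the trend subtracted, 28 passed. The difference between stages passed 1.5-fold for 0 members as deposited and for 1, *Mkl2*, after centring, with equal sums or with equal upper quartiles. Signs changed for *Mkl2* at E16.5 with equal sums, for *Mkl1* at E18.5 under each rescaling and the trend, for *Srf* at E18.5 with the trend, and in wild type E18.5 over E16.5 for *Mef2c*, *Mef2d* and *Tshz3* under rescaling and *Srf*, *Mkl1*, *Mef2d* and *Tshz3* with the trend. The cause was not tested. No replicate could be left out, since each group is 1 library. Depth limits *Mef2b*, at 1 to 13 reads.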
